A study of Mus musculus with 8 samples.

Results

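Orphan G protein coupled receptors are cell surface proteins named by sequence before a ligand was known, and mouse genes of this kind carry the symbol Gpr and a number. On the Agilent whole mouse genome array 90 genes had such a name, leaving out Gpr40, and 124 of the 41174 probes measured them. A gene counted as detected when a probe of it was well above background, as the scanning software judged it, on 4 or more of 8 arrays, and 69 of the 90 genes were detected. The arrays held RNA from the whole pancreas of C57BL/6 mice aged 1 week, which had stayed with their mother. The 4 WT samples were wild type and the 4 Glis3KO2 samples carried a knockout of Glis3, a zinc finger transcription factor that the study examined in beta cell development. The labels do not give the deleted part of Glis3, an agent, the sex of the pups or their litters, so a p-value here covers only how these samples vary among themselves, which may be technical.

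A G protein coupled receptor crosses the membrane 7 times and, once a ligand binds, hands the signal to a G protein made of an alpha subunit and a beta and gamma pair. Gs alpha subunits raise cyclic AMP through adenylyl cyclase, Gi subunits lower it, and Gq subunits release calcium, while arrestins, receptor kinases and RGS proteins end the signal. In the islets of the pancreas, such receptors tune insulin and glucagon secretion to lipids, amino acids and gut hormones. Gpr119 responds to lipid amides such as oleoylethanolamide, couples to Gs and raises glucose-stimulated insulin release from beta cells. Most of the pancreas is acinar tissue, so a receptor of islets, vessels, nerves or leukocytes was measured here at its level in the whole organ. In such bulk RNA, fewer cells of a type and less RNA per cell cannot be told apart.

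The probes on which the islet receptor values and the widest gap between probes of 1 gene rest are shown here, as printed on the array and 5′ to 3′. Capitals mark every TAA, TAG or TGA triplet in any of the 3 forward reading frames, and a stretch of coding sequence must lack them in its own frame. Positions are those of build mm7, per the array files.
Gpr119, chrX:43765663-43765722, minus strand: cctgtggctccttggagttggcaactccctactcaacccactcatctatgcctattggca
Gpr142, chr11:114915637-114915696, plus strand: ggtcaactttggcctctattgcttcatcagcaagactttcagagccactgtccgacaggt
Gpr120, chr19:37814563-37814622, plus strand: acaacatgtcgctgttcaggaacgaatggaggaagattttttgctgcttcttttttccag
Gpr158, brighter probe, chr2:21714118-21714177, plus strand: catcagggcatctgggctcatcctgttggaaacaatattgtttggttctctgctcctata
Gpr158, dimmer probe, first 30 bases, chr2:21895356-21895415 for all 60, plus strand: tgcaagaatTAAatgctttacaacaTAAat
Gpr162, first 30 bases, chr6:124884854-124884913 for all 60, minus strand: ccatccaagTGAccagatacccaacgcacc
The first 4 probes held no such triplet in any frame, which was so for 3.92% of the 41174 probes of 60 bases. The dimmer Gpr158 probe held 5 over its 60 bases and had no open frame, as did 21.7% of all probes. The Gpr162 probe held 3 triplets and kept 1 open frame. Exon and UTR positions were not assigned, because no annotation of mm7 was used here.

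The name orphan no longer fits all members. Of the 75 genes with a probe that matched RefSeq by accession, 21 now carry another symbol. Gpr120 is Ffar4, a receptor for long-chain fatty acids, Gpr30 is Gper1, proposed as an estrogen receptor, Gpr44 is Ptgdr2, a prostaglandin D2 receptor, Gpr77 is C5ar2, which binds complement C5a, Gpr23 is Lpar4, a lysophosphatidic acid receptor, Gpr81 is Hcar1, the lactate receptor, and Gpr103 is Qrfpr, a peptide receptor. Gpr177 is Wls, a carrier that brings Wnt proteins to the cell surface, and not a receptor of this kind. Gpr175 is Tpra1 and Gpr178 is Tmem181a. Gpr56 is Adgrg1, and other adhesion receptors have likewise become Adgr genes. The array's names are kept below.

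Each array had 31353 to 35613 probes well above background and its values are given as log2 signal relative to its own 75th percentile. The probe for Glis3 read -6.06, -5.41, -5.50 and -5.35 on the WT arrays and -6.06, -6.43, -5.93 and -6.15 on the Glis3KO2 arrays. Detection held on WT replicates 2, 3 and 4 and on none of the Glis3KO2 arrays, too few to be tested, and the labels do not tell whether the probe lies in the deleted part. Each genotype had a slide of its own, and the effects of slide and genotype therefore cannot be told apart. Xist, which marks female tissue, was high on WT replicate 4 and Glis3KO2 replicates 1, 3 and 4, and low elsewhere. Glis3KO2 replicates 3 and 4 stood apart on the first principal component, at 39.8 and 59.0 against -26.0 to 0.46 on the other arrays. Of 10 beta cell markers, 7 were called lower in Glis3KO2. Of 7 markers of other islet cells, Ppy and Irx2 were called lower, and none of the lists for acinar, duct, endothelial, mesenchymal, nerve, erythroid cells or leukocytes had a called gene.

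Most receptor genes gave a signal in the pancreas. Of the 90 genes, 76.7% were detected, beside 81.2% of the 27962 gene names on the array. On all 8 arrays 61 genes were well above background, 8 were so on 4 to 7 arrays, 11 on 1 to 3 arrays, and 10 on none. Genes never well above background included Gpr3, Gpr22, Gpr26, Gpr55, Gpr61, Gpr103, Gpr132, Gpr149 and Gpr174. Of these, Gpr3 belongs to the receptors that signal through Gs without a ligand, and Gpr55 responds to lysophosphatidylinositol. The 11 genes seen on 1 to 3 arrays were Gpr12, Gpr15, Gpr33, Gpr37, Gpr75, Gpr81, Gpr111, Gpr128, Gpr141, Gpr151 and Gpr157. A probe below this limit does not show that the gene was silent, only that its signal was not well above background. Gpr26 and Gpr12, for example, passed a looser detection flag on all 8 arrays, whereas Gpr3 passed it on 0.

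The number of receptor genes well above background was 70, 67, 71 and 78 on the WT arrays and 70, 62, 67 and 70 on the Glis3KO2 arrays. The groups overlapped, with means of 71.5 ± 4.65 and 67.2 ± 3.77 (SD, n = 4 each; two-sided exact permutation p = 0.286, where the smallest possible p is 0.0286). The 2 extreme counts lay on WT replicate 4, which also had the most detected probes in all, and Glis3KO2 replicate 2, which had the fewest.

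**Figure D1:**
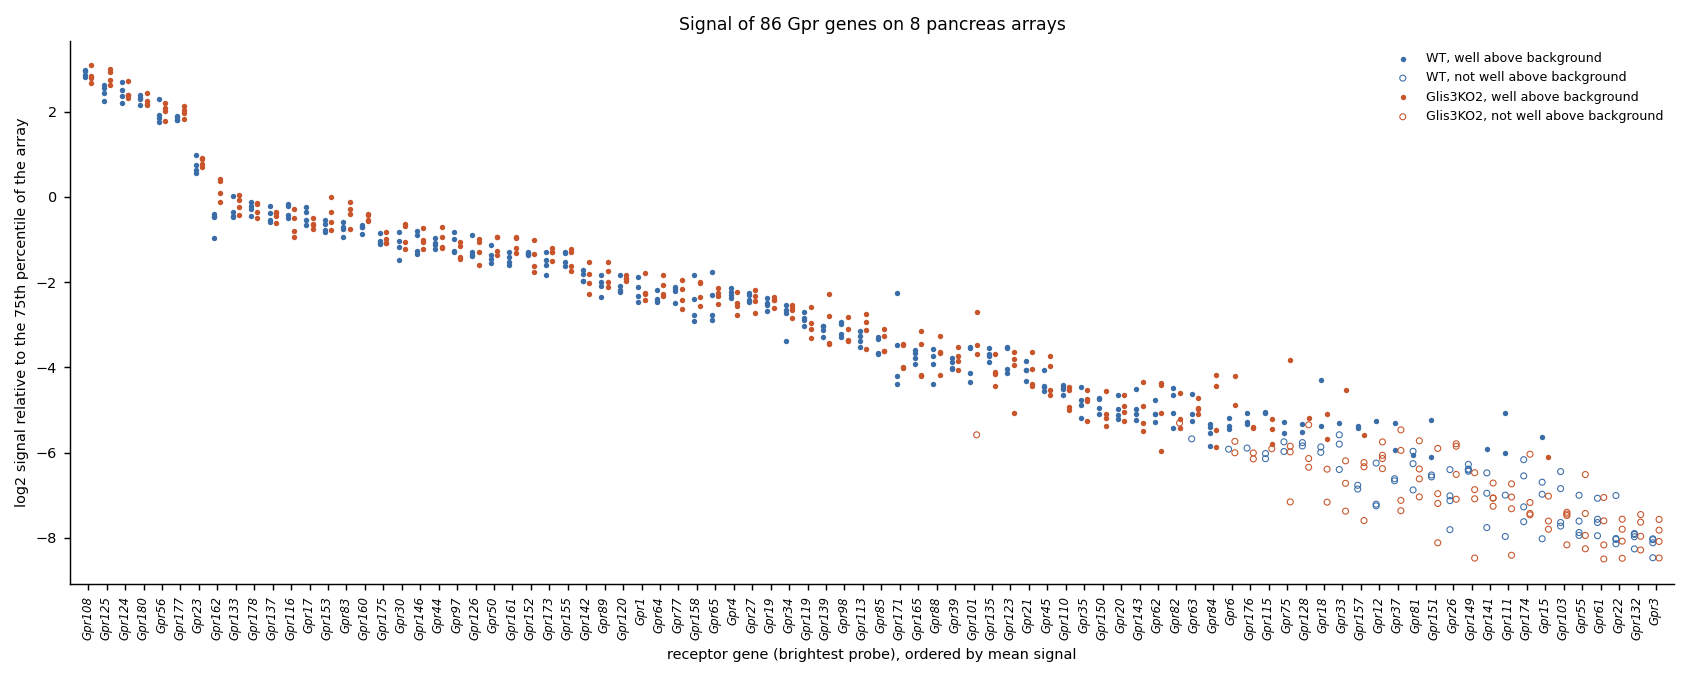
Log2 signal of the brightest probe of 86 Gpr genes, relative to the 75th percentile of each array, on 4 WT (blue) and 4 Glis3KO2 (red) arrays, with open points where the probe was not well above background. The genes are ordered by mean signal for layout, since signals of different probes do not compare transcript amounts; the 2 genotypes overlap for all but 3 of the 66 detected genes plotted, and the points spread more widely toward the dim end.

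No receptor gene was called different between the genotypes. In the limma fit over 33239 tested probes, 0 of 69 detected genes were higher and 0 were lower in Glis3KO2 at an adjusted p of 0.05, where 0.0881% of 22700 gene names were called higher and 0.211% lower. At an unadjusted p under 0.05 there were 6 receptors (8.70%), 5 higher and 1 lower, beside 9.13% of all gene names. That count ran from 2 to 11 over the other settings of the fit. The groups did not overlap for 3 receptors (4.35%), all higher in Glis3KO2, beside 5.31% of all gene names in either direction. Of all gene names, 454 had groups apart with Glis3KO2 higher and 752 with it lower, and at an unadjusted p under 0.05 there were 770 higher and 1303 lower. The 69 differences ran from -0.69 (Gpr18) to 0.76 (Gpr162) on the log2 scale, 40 above 0 and 29 below it, with a median of 0.03 beside -0.004 over all gene names. The median absolute difference was 0.136, and 0.126 over all gene names. The 95% interval lay within 1 log2 unit of 0, that is within a 2-fold change, for 62 receptors. It reached further for Gpr6, Gpr18, Gpr84, Gpr101, Gpr162 and Gpr171, among others, and for these a 2-fold difference could not be told from none, except that the interval of Gpr162 lay above 0.

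**Figure D2:**
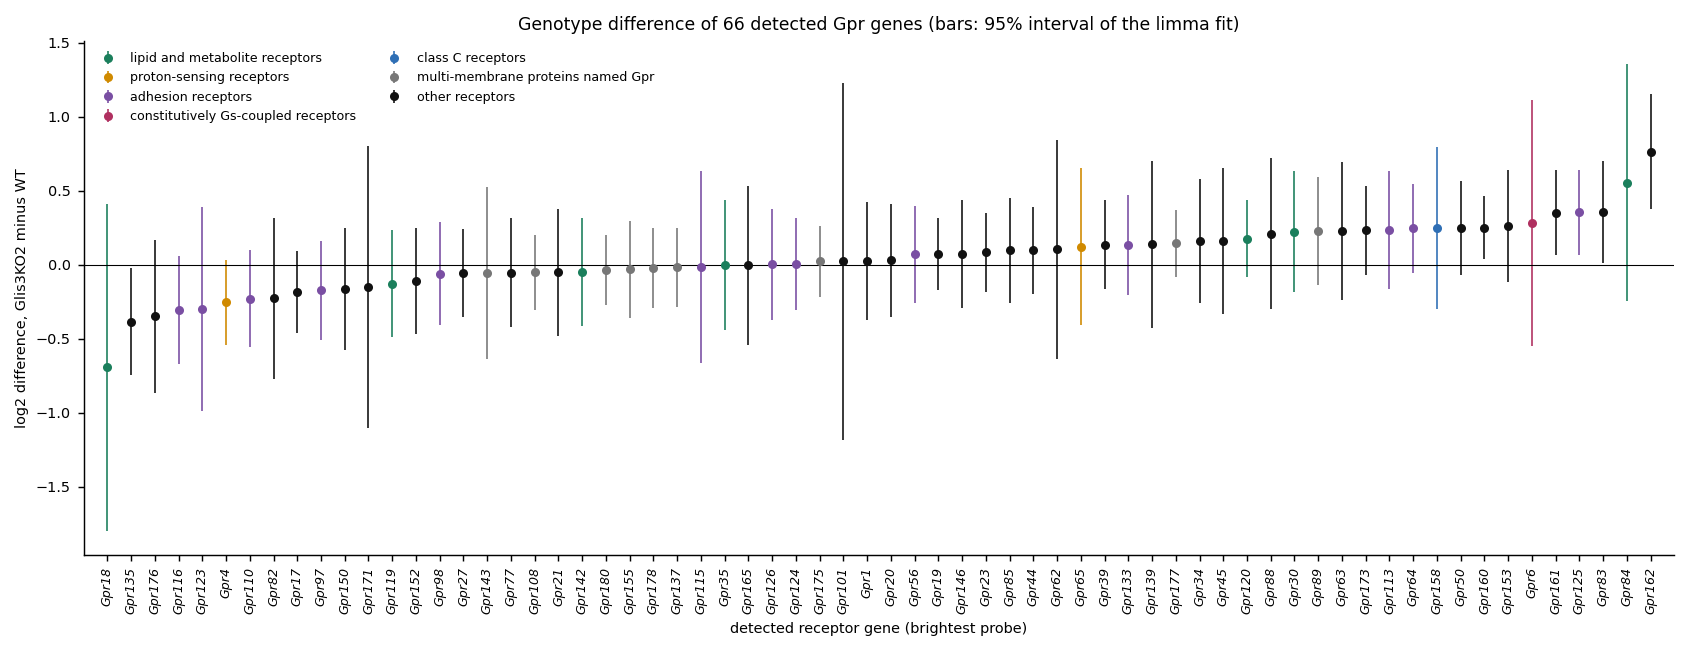
Log2 difference between Glis3KO2 and WT (vertical axis) for the brightest probe of each of 66 detected Gpr genes, ordered by difference and coloured by role, with the 95% interval of the limma fit as bars. The points run from -0.69 for Gpr18 to 0.76 for Gpr162 and most bars cross 0; none had an adjusted p under 0.05.

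Among the genes listed here as lipid and metabolite receptors, 7 of 9 were detected and 0 were called. Gpr44 and Gpr23, whose ligands are lipids too, were counted with the remaining receptors. Gpr119, the islet receptor, was well above background on all 8 arrays. Its signal was -2.88, -3.03, -2.85 and -2.69 on the WT arrays and -2.58, -2.97, -3.31 and -3.11 on the Glis3KO2 arrays. The highest and the lowest of the 8 values were both Glis3KO2 arrays, and the groups overlapped. The difference was -0.13 (SE 0.16, 95% interval -0.49 to 0.24, limma adjusted p = 0.871), so a fall by more than 0.49 lay outside the interval. Among the 69 receptors it was the 13th from the lowest and the 38th by absolute size. Without Glis3KO2 replicates 3 and 4 the difference was 0.09, so its direction rests on those arrays. Gpr119 lies on the X chromosome, where 10 of 11 receptors were detected, 6 of those 10 differences were above 0, and none was called.

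Gpr119 was set beside the 10 beta cell markers, array by array. Since 7 of these were called lower on the same arrays, and Gpr119 was not, the changes in their ratios restate that in large part and are given for their size. Ins2, an insulin gene, read 9.02, 8.77, 9.01 and 9.08 on the WT arrays and 5.83, 5.31, 5.26 and 4.67 on the Glis3KO2 arrays, without overlap. The difference between Gpr119 and Ins2 on the same array was 3.57 log2 units higher in Glis3KO2 than in WT. For the other insulin gene, Ins1, this change was 2.41, for the glucose transporter Slc2a2 2.13, for the peptide Ucn3 1.79, for the zinc transporter Slc30a8 1.35, for the factor Nkx6-1 1.16 and for the islet phosphatase G6pc2 1.00. In each of these 7 comparisons all 4 Glis3KO2 arrays lay above all WT arrays. Against Iapp, a hormone stored with insulin, the change was -0.58, and all 4 Glis3KO2 arrays lay below all WT arrays. Iapp itself was not called. Against the factors Mafa and Pdx1 it was 0.62 and -0.07, and the arrays of the 2 genotypes overlapped. These ratios compare how far 2 probes changed, not how much of each transcript was present.

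Of 10 listed receptors that have been studied in islets, 7 had a probe under a Gpr name. Gpr41, Gpr43 and Gpr54 had none under those names. The 7 were detected apart from Gpr55. Gpr142, a receptor for tryptophan and other aromatic amino acids on beta cells, read -1.97, -1.72, -1.97 and -1.80 in WT and -1.54, -2.02, -2.29 and -1.82 in Glis3KO2. The Glis3KO2 arrays again spanned the whole WT range, and the difference was -0.05 (SE 0.16, limma adjusted p = 0.960). It ran from -0.18 without Glis3KO2 replicate 1 to 0.07 without replicate 3, so it has no settled sign. Gpr120, the fatty acid receptor found on delta and enteroendocrine cells, read -2.24, -2.09, -2.19 and -1.82 in WT and -1.99, -1.92, -1.82 and -1.91 in Glis3KO2. One WT array was as high as the highest Glis3KO2 array, and the difference was 0.17 (SE 0.11, limma adjusted p = 0.706), or 0.06 with normexp background correction. Gpr39, a zinc-responsive receptor, differed by 0.13, Gpr56 by 0.07 and Gpr30 by 0.22, each with overlapping groups. Gpr30 was at 0.11 without WT replicate 3 and at 0.13 without Glis3KO2 replicate 1. Of these 6 islet receptors 4 were above 0 and 2 below it, with a median of 0.10, and none was called.

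**Figure D3:**
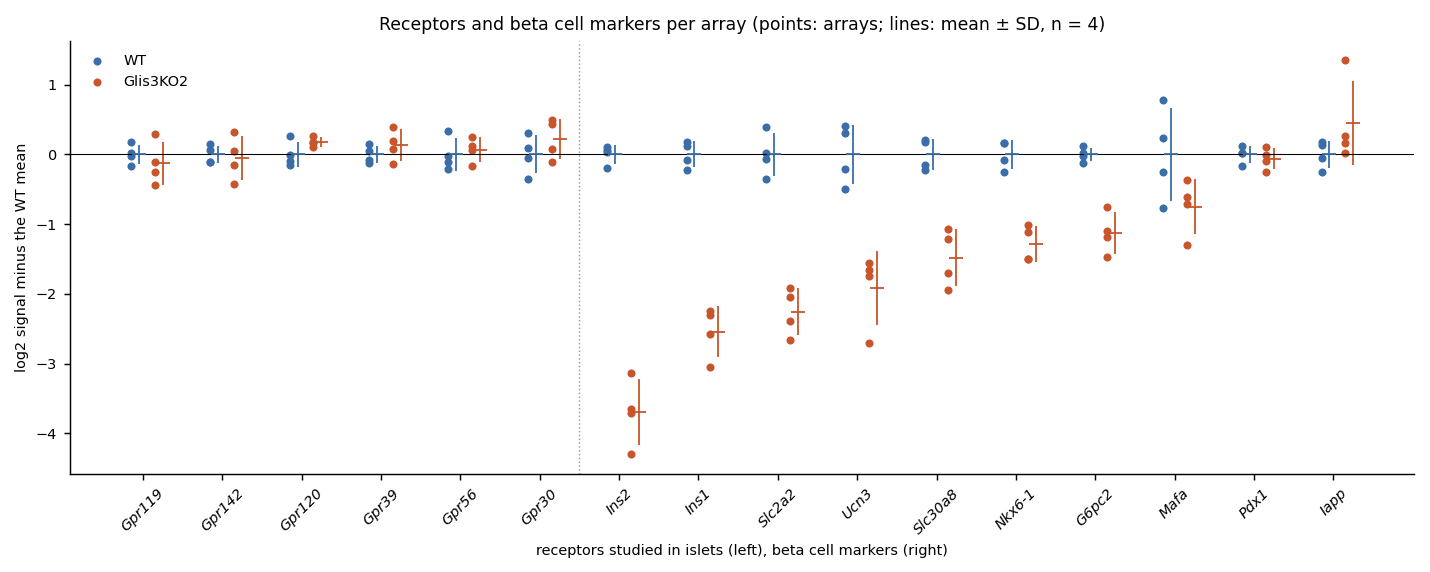
Log2 signal minus the WT mean of the same probe (vertical axis) for 6 receptors studied in islets and 10 beta cell markers, 1 point per array, WT in blue and Glis3KO2 in red, with lines for mean ± SD (n = 4). The mean differences of the receptors lie between -0.13 (Gpr119) and 0.22 (Gpr30), whereas the Ins2 points of Glis3KO2 lie near -3.70.

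The other lipid and metabolite receptors with the largest differences were dim. Gpr84, a receptor for medium-chain fatty acids on myeloid cells, read -5.34, -5.41, -5.55 and -5.85 in WT and -4.17, -4.43, -5.48 and -5.86 in Glis3KO2. Glis3KO2 replicates 1 and 2 were high, replicate 3 lay among the WT values and replicate 4 just below the lowest of them. The difference of 0.55 (SE 0.35, limma adjusted p = 0.700) became 0.28 without Glis3KO2 replicate 1, 0.85 without replicate 4 and -0.03 with normexp background correction. Gpr18, a lymphocyte receptor reported to bind N-arachidonyl glycine, read -4.30, -5.87, -6.00 and -5.38 in WT and -5.10, -7.17, -6.39 and -5.67 in Glis3KO2. It was well above background on 2 arrays of each genotype, and its difference was -0.69 (SE 0.49, limma adjusted p = 0.730), or -0.33 without Glis3KO2 replicate 2.

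Of the 4 proton-sensing receptors, 3 were detected and 0 were called. Gpr4, which endothelial cells use to sense acid, read -2.23, -2.29, -2.38 and -2.14 in WT and -2.50, -2.24, -2.56 and -2.77 in Glis3KO2, with Glis3KO2 replicate 2 among the WT values. Its difference was -0.25 (SE 0.13, limma adjusted p = 0.613), or -0.11 without Glis3KO2 replicates 3 and 4, and its dimmer probe gave 0.07. Gpr65, the leukocyte member, differed by 0.12.

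Adhesion receptors, which pair a long extracellular part with the 7 membrane spans and bind matrix and neighbouring cells, were detected for 14 of 16 genes. Their differences were above 0 for 8 and below for 6, with a median of 0.002, and 0 were called. Gpr125, an adhesion receptor linked to planar cell polarity, read 2.45, 2.56, 2.61 and 2.25 in WT and 2.73, 2.63, 2.99 and 2.93 in Glis3KO2. Every Glis3KO2 array was above every WT array, by a narrow gap, and the difference was 0.35 (SE 0.13, limma adjusted p = 0.453). Without Glis3KO2 replicates 3 and 4 it was 0.21, and over 18 other settings its adjusted p ran from 0.298 to 0.897. Gpr116, an adhesion receptor of endothelium and lung epithelium, differed by -0.31 (SE 0.16, limma adjusted p = 0.633), or -0.20 without Glis3KO2 replicate 1. All 6 endothelial markers lay below 0 too, with a median of -0.16 and none called, and the mean level of that list was 1.02 to 1.27 in WT and 0.73 to 1.14 in Glis3KO2. Their part in the values of Gpr4 and Gpr116 was not tested. Gpr126, an adhesion receptor that Schwann cells need for myelination, differed by 0.001, and its dimmer probe, which passed the detection limit on 4 of 4 WT but 1 of 4 Glis3KO2 arrays, by -0.22. Gpr98, a very large adhesion receptor of hair cells, had 7 probes, of which 2 were detected, at -0.06 and -0.39.

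Only Gpr6 of the 3 constitutively Gs-coupled receptors was detected, and it differed by 0.28 (SE 0.37, limma adjusted p = 0.878), or -0.05 without Glis3KO2 replicate 1 and 0.55 without replicate 2. None of the detected class C receptors was called.

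The 2 probes of Gpr158, a class C receptor best known from the brain, gave differences of opposite sign, neither of them called. The brighter probe, whose sequence is free of stop triplets, read -1.83, -2.40, -2.92 and -2.78 in WT and -2.03, -2.01, -2.56 and -2.35 in Glis3KO2. These groups overlapped and the difference was 0.25 (SE 0.24, 95% interval -0.30 to 0.79, limma adjusted p = 0.819). It was 0.46 without WT replicate 1, 0.10 without WT replicate 3 and 0.15 without WT replicate 4. The dimmer probe, whose sequence has stop triplets in every frame, read -4.80, -4.83, -4.11 and -4.04 in WT and -5.72, -6.06, -6.24 and -5.23 in Glis3KO2. Here every Glis3KO2 array was below every WT array, and the probe passed the detection limit on all 4 WT arrays but on 1 of the Glis3KO2 arrays. It thus met the filter for testing through the WT arrays, the group where it was high. The difference was -1.37 (SE 0.27, limma adjusted p = 0.118), which did not pass the threshold and was -0.40 with normexp background correction. Over 17 other settings its adjusted p ran from 0.0830 to 0.436. All 6 tested nerve and glia markers were also below 0, with a median of -0.27 and none called, and the mean level of that list was -1.20 to -0.99 in WT and -1.62 to -1.27 in Glis3KO2. Their part in the Gpr158 value was not tested. Probes of 1 gene differed elsewhere too. Of 16 receptors with 2 or more tested probes, 8 had differences of opposite sign, 14 had differences within 0.5 of each other, and Gpr158 alone was 1 or more apart.

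Among the 9 detected multi-membrane proteins that carry a Gpr name, the largest differences were 0.23 for Gpr89, a Golgi pH regulator, 0.14 for Gpr177, and -0.06 for Gpr143, a melanosome protein. None was called. This group had the smallest median SD of the role lists with more than 3 genes, at 0.145 log2 units. Gpr178 has near-identical copies in the genome, so its signal may be shared between them.

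The 33 remaining detected receptors had 22 differences above 0 and 11 below it, with a median of 0.08. Gpr162, an orphan receptor of the rhodopsin class, had the largest difference of all 69 by brightest probe. It read -0.39, -0.45, -0.96 and -0.48 in WT and 0.08, 0.43, 0.38 and -0.13 in Glis3KO2, so that the lowest Glis3KO2 array was above the highest WT array. The difference was 0.76 (SE 0.17, 95% interval 0.37 to 1.15, limma adjusted p = 0.193), the smallest adjusted p among the brightest probes of the 69. With trend and robust settings it was 0.0614, and over 18 other settings it ran from 0.0614 to 0.498 with differences of 0.63 to 0.87. Gpr160, also without a settled ligand, read -0.72, -0.86, -0.67 and -0.70 in WT and -0.56, -0.44, -0.40 and -0.55 in Glis3KO2. The groups did not overlap, and the difference was 0.25 (SE 0.09, limma adjusted p = 0.481). Gpr162, Gpr125 and Gpr160 were each measured by 1 probe.

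**Figure D4:**
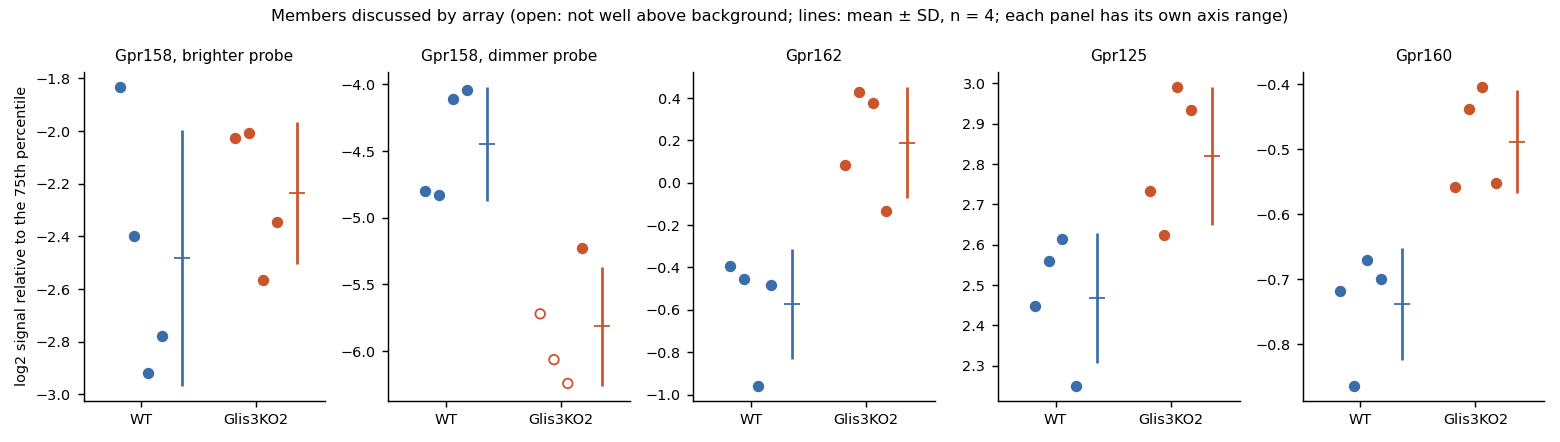
Log2 signal relative to the 75th percentile of the array for both Gpr158 probes, Gpr162, Gpr125 and Gpr160 on 4 WT (blue) and 4 Glis3KO2 (red) arrays, with lines for mean ± SD and open points where the probe was not well above background; each panel has its own range. The brighter Gpr158 probe overlaps between genotypes, the dimmer one lies lower in Glis3KO2 (-1.37), and the other 3 genes lie higher in Glis3KO2 by 0.76, 0.35 and 0.25.

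The other receptors at an unadjusted p under 0.05 were Gpr161, Gpr83 and Gpr135, which are named here after their values were seen. Gpr161, a ciliary receptor that restrains Hedgehog signalling, differed by 0.35 (limma adjusted p = 0.457), while its second probe gave -0.18. Gpr83 differed by 0.35 (limma adjusted p = 0.543), while its second probe gave -0.01. Without Glis3KO2 replicates 3 and 4 it was 0.16. Gpr135 differed by -0.39 (limma adjusted p = 0.527), or -0.21 both without those arrays and with normexp. Gpr83 and Gpr135 were no longer at p under 0.05 without those arrays.

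Some further receptors were likewise picked after their values were seen. Gpr101, a receptor of the hypothalamus and pituitary, had the largest SD within a genotype among the 69 detected genes, at -3.53, -4.13, -4.34 and -3.55 in WT and -2.70, -5.58, -3.70 and -3.48 in Glis3KO2. The Glis3KO2 arrays held both extremes, and the difference of 0.02 (SE 0.53, limma adjusted p = 0.995) had the widest interval of the 69, from -1.18 to 1.23. Gpr124, which vessels of the brain need for their growth, differed by 0.004 with an interval of -0.31 to 0.32, and Gpr108 by -0.05 with an interval of -0.31 to 0.20. Gpr17, a receptor of oligodendrocyte precursors, differed by -0.19 and -0.07 on its 2 probes.

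Of the receptors known from leukocytes, 8 of 12 were detected and 0 were called, with 4 differences above 0 and 4 below. Of those 8, only Gpr171, Gpr18 and Gpr65 were highest on WT replicate 1. Gpr35 had its lowest WT value there, at -5.20, and Gpr34 and Gpr97 were highest on WT replicate 4. Gpr171, a lymphocyte receptor named here after its values were seen, read -2.26 on that array and -4.21, -4.38 and -3.49 on the other WT arrays, beside -3.46, -4.03, -4.0 and -3.47 in Glis3KO2. Its difference was -0.15 (SE 0.42) with all arrays and 0.29 (SE 0.25) without WT replicate 1. Gpr18 and Gpr65 were also highest on WT replicate 1, at -4.30 and -1.75, and without it their differences moved from -0.69 to -0.33 and from 0.12 to 0.35. On the same array Ptprc, the pan-leukocyte antigen CD45, read 1.23, against -1.13, -0.98 and -0.29 on the other WT arrays. Cd3e, a T cell marker, did not share this, at 0.48 against 0.50, 0.38 and 0.38, nor did the macrophage marker Csf1r, at 1.47 against 1.19, 1.23 and 1.54. The mean level of 8 leukocyte markers was 0.09 to 0.72 in WT and 0.36 to 0.46 in Glis3KO2. Their part in the receptor values was not tested.

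**Figure D5:**
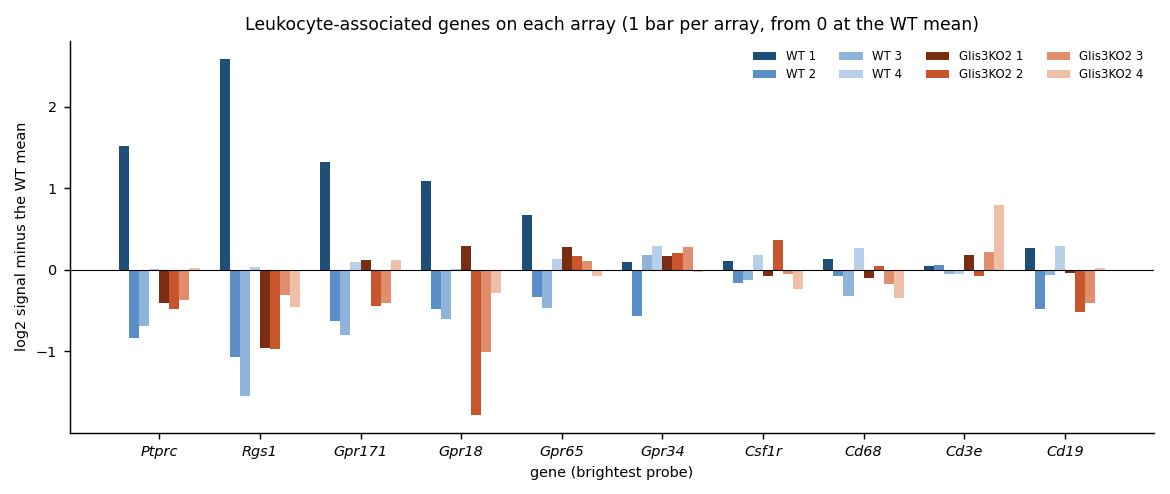
Log2 signal minus the WT mean of the same probe (vertical axis) for 10 genes associated with leukocytes, 1 bar per array from 0 at the WT mean, WT in blue shades and Glis3KO2 in red shades. WT replicate 1 has the tallest upward bar for Ptprc, Rgs1, Gpr171, Gpr18 and Gpr65, and not for Gpr34, Csf1r, Cd68 or Cd3e.

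The spread between arrays grew as signal fell. The median SD within a genotype was 0.195 log2 units for the 30 receptors above a mean of -2, 0.270 for the 23 between -4 and -2, and 0.381 for the 16 at or below -4. In that dimmest band the median receptor lay at 0.33, 0.04, -0.25 and -0.30 relative to the WT mean on Glis3KO2 replicates 1 to 4, and in the brightest band at 0.18, 0.05, 0.07 and 0.10. Glis3KO2 replicate 1 was thus the high array for many dim receptors, Gpr84 and Gpr6 among them.

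The genes that carry the receptors' signal onward did not pass the test either. None of 15 G protein alpha subunits was called, with 9 differences above 0 and 6 below. The largest was Gnao1, the alpha subunit typical of neurons and endocrine cells, at -0.52 (SE 0.20, limma adjusted p = 0.477), with its lowest values of -2.82 and -3.30 on Glis3KO2 replicates 3 and 4. Without these it was -0.22, and without replicate 4 alone -0.34. None of 15 beta and gamma subunits was called, 7 above 0 and 8 below, and the largest was Gng13 at 0.73 (SE 0.38, limma adjusted p = 0.630). Its value of 0.03 on Glis3KO2 replicate 1 stood over -1.71, -1.64 and -1.42 on the other Glis3KO2 arrays, and without that array the difference was 0.32. In the same list the groups did not overlap for Gng4, named after its values were seen, at -0.60 (SE 0.17, limma adjusted p = 0.329). Groups without overlap thus numbered 1 of 15 alpha subunits and 1 of 15 beta and gamma subunits, beside 5.31% of all gene names.

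Of 9 tested adenylyl cyclases, which make cyclic AMP, 4 lay above 0 and 5 below. Adcy7 read 1.03, 0.70, 0.96 and 1.01 in WT and 1.11, 1.33, 1.34 and 1.34 in Glis3KO2, without overlap, and differed by 0.36 (SE 0.11, limma adjusted p = 0.387). Of 8 arrestins and receptor kinases, 1 lay above 0 and 7 below. Adrbk2, the receptor kinase now called Grk3, read 0.52, 0.43, 0.74 and 0.61 in WT and 0.14, 0.30, 0.26 and 0.17 in Glis3KO2, without overlap, and differed by -0.36 (SE 0.10, limma adjusted p = 0.335). Of 18 RGS proteins, 10 lay above 0 and 8 below. Rgs1, an RGS protein of lymphocytes, differed by -0.67 (SE 0.77, limma adjusted p = 0.854), with -2.44 on WT replicate 1 against -6.11, -6.58 and -5.01 on the other WT arrays. Without that array the difference was 0.19, and without WT replicate 3 it was -1.19. Rgs9 and Rgs7, named after their values were seen, had groups that did not overlap, at 0.59 (limma adjusted p = 0.395) and -0.48 (limma adjusted p = 0.384). Groups without overlap numbered 1 of 9 adenylyl cyclases and 1 of 8 arrestins and receptor kinases. Among the 18 RGS proteins there were 1 higher and 1 lower. Over all gene names the share was 5.31%.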

How the data were processed

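Per the labels' protocols, 500 ng of total RNA per pancreas was labelled with Cy3, 1 sample per single-colour array, 4 WT and 4 Glis3KO2. The deposited values are linear spot intensity values, read by the authors with Agilent Feature Extraction 9.5.3.1 per the file headers, and 9.5 per the submitters' processing notes. The deposited series table held the same values, so that alternative is identical to the main fit. Here the processed signal was put on the log2 scale and each array's 75th percentile subtracted, flagged spots (56 to 130 per array) were left out, and spots of a probe were averaged. Probes well above background on 4 or more of 8 arrays entered limma 3.58.1 (R 4.3.3, lmFit and eBayes, 2-sided, genotype as the sole term), with Benjamini-Hochberg adjustment over 33239 probes. Dim differences depend on how background was removed. Counts of detected receptors per array, and the differences between Gpr119 and each beta cell marker, were compared between genotypes by exact permutation (scipy 1.17.1).

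Each gene's value is that of its brightest probe. The text names Gpr119, any called member, the 12 largest differences without overlap, the 3 largest per role list, members whose probes disagree by 1 or more, members above background on all arrays of one genotype and at most 1 of the other, and 1 gene per pathway list. A few members are not reported here by name, in text or plots, but stay in the counts. Members, lists and rules were chosen with earlier results of these data known. The replicate numbers did not pair the samples. The fit was tested on simulated data. The number of arrays limits the precision.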

Additional observations from a re-analysis of the deposited data

Results flagged for a closer look

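With 4 samples per group, the array farthest from the others was compared with the range of its group for 50 groups of named genes, and 5 stood apart, where chance gives about 1 in 20. Gpr162 was low on WT replicate 3, at -0.96. Gpr126, an adhesion receptor of Schwann cells, was high on the same array, at -0.90. The dimmer Gpr126 probe was high on WT replicate 4, at -4.95. Gng13 was high on Glis3KO2 replicate 1, at 0.031, and Adcy7 was low on that array, at 1.11, though still above every WT array.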

How the results depend on the processing

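The count of receptors past the threshold was 0 in each direction under every setting run, among them both other normalizations, normexp, both other filters, trend and robust eBayes, array weights, Xist as a covariate and each array left out. Over all probes those settings moved the calls from 27 higher and 58 lower to between 5 and 44 higher and between 6 and 98 lower. The replicate block, for numbers whose deviations correlated at 0.13, 0.09, 0.24 and -0.04, gave 0 receptors, and 7 higher and 8 lower probes in all. Detected receptors numbered 61 (all 8 arrays), 80 (1 or more), 85 (a looser detection flag), 65 (all arrays of a genotype) and, chosen after seeing the data, 70 without Glis3KO2 replicates 3 and 4 and 68 without WT replicate 1. Leaving out 1 array, Gpr119 ran from -0.27 to -0.02. Of 449 values for 24 named results other than that of Gpr119, 25 reversed sign, all for differences that were not called. The cause was not tested. Leaving out Glis3KO2 replicates 3 and 4 gave 0.089 for Gpr119, 0.33 for Gpr143, -0.096 for Gpr126 and 0.131 for its dimmer probe. Normexp gave -0.033 for Gpr84, -0.014 for Gpr65, -0.065 for Gpr6 and -0.057 for Gpr39. Quantile normalization gave 0.051 for Gpr143. Xist as a covariate gave -0.069 for Gpr6, 0.011 for Gpr143 and -0.087 for Gpr126. The mean of all probes gave -0.56 for Gpr158, -0.043 for Gpr177 and -0.11 for Gpr126. With 1 array left out, Gpr65 ran from -0.035 to 0.35, Gpr6 ran from -0.053 to 0.55, Gpr143 ran from -0.28 to 0.11, Gpr126 ran from -0.080 to 0.12 and Rgs1 from -1.19 to 0.19.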
